A study of Homo sapiens with 2 samples.

Results

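The genes described here make, cut or bind hyaluronan, and were taken as the rows of the deposited gene table whose symbol is CD44, HAS2, HAS3, HYAL1, HYAL2, HYAL3, CEMIP or HABP4, 8 of 61806 genes. They were measured by messenger RNA sequencing of SAS cells, an established line from a human tongue squamous cell carcinoma. One library came from cells given a negative control siRNA and 1 from cells given an siRNA against COL17A1, both harvested 48 hours after lipid transfection. The labels give the genotype of both as wild type, so no allele separates them, and the knockdown rests on a single siRNA sequence in a single line. Each group is a single library, so differences have no replicate check, p-values are not given, and intervals in brackets cover counting error only.

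Hyaluronan is a long unsulfated polysaccharide of the matrix, built at the plasma membrane by the HAS synthases from UDP-glucuronic acid and UDP-N-acetylglucosamine. The hyaluronidases HYAL1 and HYAL2 and the hyaladherin CEMIP take part in cutting it into shorter chains. CD44 is its main cell surface receptor and is abundant in squamous epithelium, where hyaluronan fills the spaces between the living cell layers.

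Of the 8 genes, 7 were measured at a mean of at least 1 CPM (counts scaled to library size), and 1 of these, HABP4, was called different between the libraries. A gene was called higher or lower when its scaled counts were at least 1.5-fold apart and the exact 95% interval of the ratio excluded 1. By that rule 1 of 7 was higher, 0 were lower and 6 were neither, beside 12.2% higher and 11.7% lower among 13375 tested genes. The interval of CD44 also excluded 1, at a 1.08-fold difference. At 2-fold or more HABP4 was again the 1 gene called, beside 3.04% higher and 3.6% lower among all tested genes. The median log2 ratio (COL17A1 siRNA over control) of the 7 genes was 0.23 and that of all tested genes 0.03.

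The libraries held 15980152 counts (control) and 21601195 counts (knockdown). COL17A1 itself, the collagen of hemidesmosomes that the siRNA targets, had 3116 and 411 counts, a log2 ratio of -3.39 [-3.55 to -3.25]. All 8 squamous epithelial markers examined were measured, with 2920 CPM in sum in the control and 3487 CPM in the knockdown library. The leukocyte, endothelial and fibroblast markers summed to between 0.951 and 5.21 CPM per class and library. PTPRC, CD3E, PECAM1, COL1A2 and COL3A1 had 0 counts in both. Of the others, 4 had more counts in the knockdown library: CD14 with 47 and 114, COL1A1 with 15 and 32, VWF with 12 and 21 and PDGFRB with 6 and 17. LYZ and CDH5 each had 3 and 0 counts, and DCN and LUM each had 1 and 0. In bulk RNA the number of cells that hold a transcript and the amount per cell cannot be told apart.

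Per length, CD44 stood far above the other genes in both libraries. Its level was 104.0 FPKM (fragments scaled by exonic size and library total) in the control and 99.2 FPKM in the knockdown library. In the control library HYAL2 followed at 2.76 FPKM, then HYAL1 at 1.42, HABP4 at 0.75, HYAL3 at 0.67, HAS3 at 0.32 and CEMIP at 0.21. HABP4 and HYAL3 did not differ in level beyond counting error there, with a ratio of 1.12 [0.661 to 1.97], nor did HAS3 and CEMIP, at 1.52 [0.855 to 2.71]. In the knockdown library every neighbouring pair of levels differed beyond counting error, and HABP4 stood above HYAL1 by 1.41-fold [1.12 to 1.77], whereas HYAL1 stood above HABP4 by 1.89-fold [1.30 to 2.79] in the control. No other pair changed places. HAS2 was last in both, with no count.

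**Figure D1:**
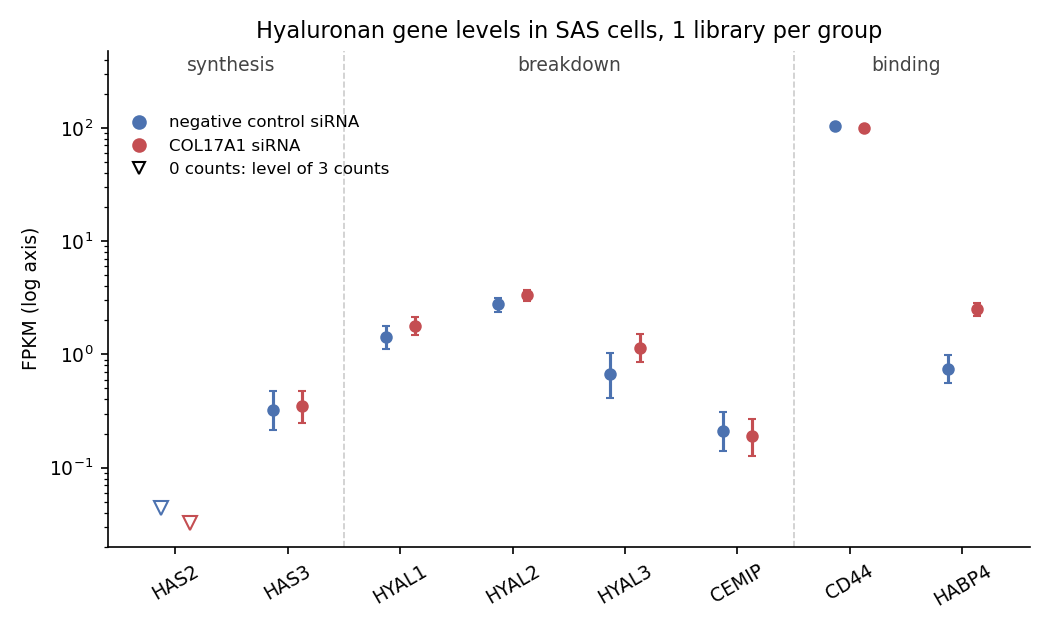
FPKM of the 8 genes on a log axis in the control (blue) and COL17A1 siRNA (red) library, grouped by role. Bars are exact 95% Poisson intervals of the count. CD44 lies near 100 FPKM in both libraries, the HABP4 points are clearly separate at 0.75 and 2.51 FPKM, and HAS2 had no count, so its triangles mark the level of 3 counts.

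HABP4 binds hyaluronan and RNA and is found mainly inside the cell, in the cytoplasm and nucleus. Control cells gave 49 counts and knockdown cells 222. These are 3.11 CPM [2.30 to 4.11] and 10.1 CPM [8.85 to 11.6], or 0.75 and 2.51 FPKM. The knockdown value is the high one, and the counting intervals of the libraries do not overlap. The ratio was 3.24-fold, a log2 ratio of 1.69 [1.25 to 2.18], with 18 of the 13375 tested genes further up. Its interval lay above those of 5 of the other 6 measured genes and overlapped that of HYAL3 alone. It was 1.74 once a fitted trend on length, GC content and abundance had been subtracted, here called the adjustment.

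HABP4 (ENSG00000130956) lies on GRCh38 chromosome 9, 96450169 to 96491336, on the plus strand. Its last 1096 bases overlap CDC14B, a phosphatase gene on the minus strand. CDC14B had 720 and 880 counts and a log2 ratio of -0.18 [-0.33 to -0.04], so it did not go the way of HABP4. The strand setting used in counting is not given in the sources used here, and without strand, reads of the shared bases could be counted for either gene. The part of such reads in the HABP4 counts was not tested.

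An earlier analysis of the same libraries had marked 2 words of 7 bases in 3' untranslated regions, TCGGAGA and also GCTAATG. Because these words were chosen with the same values in view, their presence in a gene is given only as a description. HABP4 is the 1 of the 8 genes whose longest annotated 3' UTR (1298 bases, GENCODE release 29) holds TCGGAGA, and 0 of the 8 hold GCTAATG. The former word occurred in 2.01% of 18763 searched 3' UTRs and in 1.73% (42 of 2434) of those within 20% of the HABP4 length. Its reverse complement, searched in the same way, occurred in 1.92%. The word in HABP4 starts at base 432 of the 3' UTR, in exon 5 of 5, at chr9:96490470-96490476 on the plus strand, within the bases shared with CDC14B. The 30 bases printed for it span chr9:96490459-96490488, and the coordinates given for the other sites are also those of the printed bases. The HABP4 site is printed with the only TCGGAGA site among the 60 genes of the related lists further on, in MMP14 (chr14:22846645-22846674, plus strand). Also printed are the GCTAATG sites of the 2 lower genes of those lists that hold one. Those are GNPNAT1 (chr14:52778265-52778294, minus strand) and the pair of sites in IQGAP1 (chr15:90500663-90500692 and chr15:90501921-90501950, plus strand). Each line reads 5′ to 3′ along the transcript on GRCh38, with the word in capitals.
HABP4: cagctgagtttTCGGAGAccaagaaattaa
MMP14: agtcaagttccTCGGAGAtctgcctctgcc
GNPNAT1: ttgtcaaagggGCTAATGctacaaggctac
IQGAP1, first site: tatggacaggaGCTAATGgaagtgacagtc
IQGAP1, second site: tcaacacaattGCTAATGcagaatagtgta
The log2 ratios of HABP4 and MMP14, which both hold TCGGAGA, were 1.69 and -0.27. GNPNAT1 and IQGAP1 were at -0.71 and -0.81, while VCAN, RDX, ADAM10 and ADAM17, also lower, hold neither word in the searched 3' UTR. The other listed genes with GCTAATG did not pass the rule: MSN was at -0.51, SERBP1 at -0.50 and PGM3, an enzyme of the UDP-N-acetylglucosamine route, at -0.12, and ITIH5 had 0 counts in both libraries. GCTAATG occurred in 7.46% of searched 3' UTRs, in 8.50% of those of tested genes and in 6 of 60 genes of the related lists. Its reverse complement occurred in 6.81% of searched 3' UTRs and likewise in 6 of the 60.

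CD44, the transmembrane hyaluronan receptor that links the matrix to the actin cortex, had by far the most counts of the 8. Control cells gave 16607 and knockdown cells 21402, or 1053 CPM [1037 to 1069] and 977.5 CPM [964.5 to 990.7]. The knockdown value is slightly lower and the intervals do not overlap. The log2 ratio was -0.11 [-0.14 to -0.08], a 1.08-fold difference that is far under the 1.5-fold rule. After the adjustment it was 0.12, so its direction depends on that choice. CD44 (ENSG00000026508, chromosome 11, 35138882 to 35232402, plus strand) has 26 coding transcripts in GENCODE release 29, and the gene count sums standard and variant isoforms, so their shares are not measured. The overlapping loci CD44-AS1, CD44-DT and ENSG00000251194 had at most 12 counts per library.

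**Figure D2:**
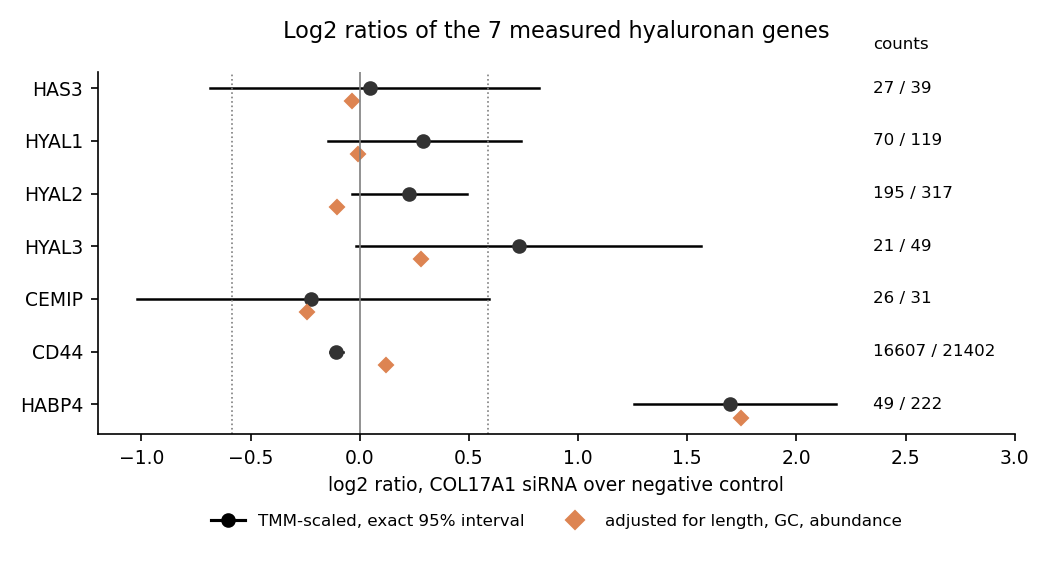
Log2 ratios of the 7 measured genes (black, with exact 95% counting intervals) and the same after adjustment for length, GC content and abundance (orange), with control and knockdown counts at the right. Dotted lines mark 1.5-fold. HABP4 at 1.69 is the only interval beyond the upper dotted line, and the 3 HYAL genes move toward or below 0 after adjustment.

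Among the breakdown genes, the 3 hyaluronidases HYAL1, HYAL2 and HYAL3 had positive log2 ratios and CEMIP a negative one, and none passed the rule. HYAL2, the GPI-anchored hyaluronidase that cuts long chains at the cell surface, had 195 and 317 counts, or 12.4 CPM [10.7 to 14.2] and 14.5 CPM [12.9 to 16.2]. The intervals overlap. The log2 ratio was 0.23 [-0.03 to 0.49]. HYAL1, the lysosomal hyaluronidase, had 70 and 119 counts, or 4.44 CPM [3.46 to 5.61] and 5.44 CPM [4.50 to 6.50]. These intervals overlap too, and the log2 ratio was 0.29 [-0.15 to 0.74].

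HYAL3, a further family member whose part in hyaluronan breakdown is less settled, had 21 and 49 counts, or 1.33 CPM [0.824 to 2.04] and 2.24 CPM [1.66 to 2.96]. The knockdown value is higher and the intervals overlap. The log2 ratio of 0.73 [-0.02 to 1.56] was past 1.5-fold, but its interval held 0 and the gene was not called. With total counts as the scale it was called, at 0.77 [0.02 to 1.60], and with deposited FPKM at 0.70. HYAL3 shares 3004 bases with NAA80, an actin N-terminal acetyltransferase gene on the same strand, and 88 bases with IFRD2. NAA80 had 53 and 117 counts and a log2 ratio of 0.66 [0.19 to 1.17]. Reads of the shared bases could fall to either gene, and their part in the HYAL3 value was not tested.

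Summed, the 3 hyaluronidase genes had 286 and 485 counts, or 18.1 and 22.2 CPM, a log2 ratio of 0.29 [0.07 to 0.50]. HYAL2 supplied 68.2% of that sum in the control and 65.4% in the knockdown library, HYAL1 24.5% and 24.5%, and HYAL3 7.34% and 10.1%. After the adjustment HYAL1 was at -0.01, HYAL2 at -0.10 and HYAL3 at 0.28. The difference between the libraries ran with exonic size over all tested genes: the median log2 ratio was 0.34 in the 3346 genes of up to 3158 bases and -0.23 in the 3342 genes of 7956 bases or more. HYAL3 and HYAL1 fall in the shortest class, at 1967 and 3085 bases, and CD44 in the longest, at 9992 bases. HYAL2 and HABP4, at 4421 and 4088 bases, fall in the class of 3160 to 5182 bases with a median of 0.09, and HAS3 and CEMIP, at 5200 and 7621 bases, in that of 5183 to 7954 bases with a median of -0.07.

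The 3 hyaluronidase genes lie side by side on the minus strand of chromosome 3, from 50292831 to 50322782. HYAL2 overlaps TUSC2 on its strand by 2756 bases. In a window of 60 kb on either side, chosen after the values were seen, 9 other genes were tested and all 9 had log2 ratios above 0, from 0.24 to 0.97 around a median of 0.42. Above 0 lay 52.0% of all tested genes. The 3 called higher were NAA80, CYB561D2 at 0.92 and GNAI2, a G protein alpha subunit, at 0.97 with 3589 and 9766 counts. Of all tested genes 12.2% were called higher. After the adjustment the median of the 9 was 0.12. NAA80 and CYB561D2 then lay under 1.5-fold, at 0.22 and 0.51, and GNAI2 was at 0.93. IFRD2 and RASSF1 were then below 0, at -0.06 and -0.07, and the rest of the 9 stayed above 0.

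**Figure D3:**
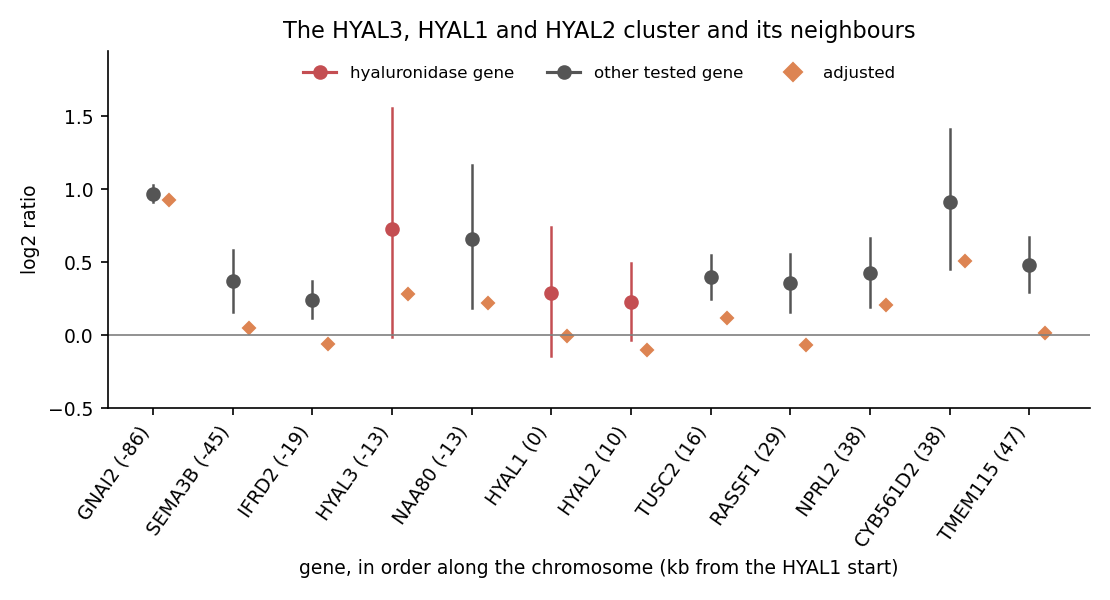
Log2 ratios of tested genes in and around the HYAL3, HYAL1 and HYAL2 cluster in chromosomal order, with each gene's start in kb from that of HYAL1 and exact 95% counting intervals. HYAL1 and HYAL3 (red) lie within the range of their neighbours, which run from 0.24 to 0.97, HYAL2 at 0.23 lies just below it, and orange diamonds give adjusted values.

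CEMIP, a secreted hyaladherin needed for hyaluronan depolymerisation in fibroblasts, had 26 and 31 counts, or 1.65 CPM [1.08 to 2.42] and 1.42 CPM [0.962 to 2.01]. Its intervals overlap nearly whole. The log2 ratio was -0.22 [-1.02 to 0.59], an interval that holds 1.5-fold in either direction, so a difference of that size was not detectable at this depth. Its locus (chromosome 15, 80779343 to 80951776, plus strand) shares 5488 bases with MESD on the minus strand. MESD, a chaperone of LRP receptors, had 434 and 1867 counts and a log2 ratio of 1.63 [1.48 to 1.79]. The MESD interval lies wholly above that of CEMIP. The part of reads from the shared bases in either count was not tested.

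Of the synthases, HAS3 was present at a low level and HAS2 was not detected. HAS3 had 27 and 39 counts, or 1.71 CPM [1.13 to 2.49] and 1.78 CPM [1.27 to 2.44]. Neither library stands apart, and the log2 ratio was 0.05 [-0.69 to 0.82], an interval that holds 1.5-fold in either direction. Its 3' end overlaps CHTF8 on the opposite strand by 710 bases, which had 132 and 134 counts and a log2 ratio of -0.45.

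HAS2, the synthase that dominates in many fibroblasts and mesenchymal cells, had 0 counts in the control and 0 in the knockdown library. Taking 3 counts as the limit, this allows up to 0.190 CPM in the former and 0.137 CPM in the latter, or 0.0443 and 0.0328 FPKM. Its antisense gene HAS2-AS1 had 1 and 0 counts. HAS1, the remaining synthase, also had 0 counts in both libraries. HAS3 is thus the only synthase gene with counts in these libraries, at 0.32 and 0.35 FPKM.

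**Figure D4:**
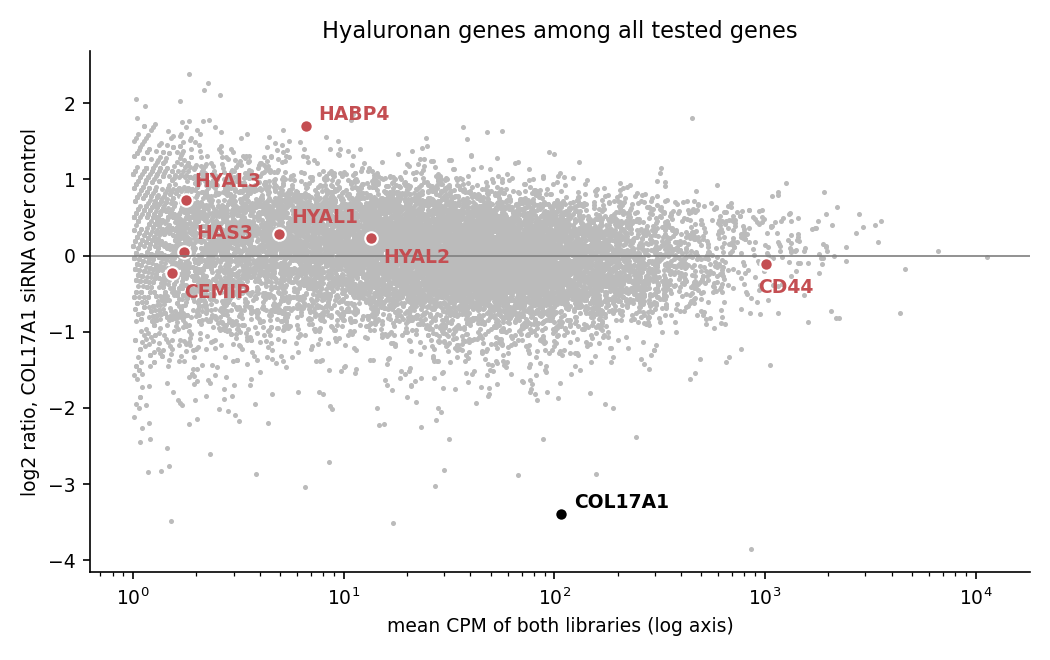
Mean CPM of both libraries (log axis) against the log2 ratio for 13375 tested genes (grey), the 7 measured hyaluronan genes (red) and COL17A1 (black). HABP4 at 1.69 lies at the upper edge of genes of like abundance, and the other 6 lie inside the cloud, between -0.22 and 0.73.

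Other genes of hyaluronan metabolism and binding were examined in 7 lists of 60 genes, of which 37 were tested. Of these 0 were higher, 6 lower and 31 neither, around a median log2 ratio of -0.25. Among all tested genes 12.2% were higher and 11.7% lower, around a median of 0.03. The list of CD44 partners held 4 of the 6 lower genes. After the adjustment the median was -0.11.

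The enzymes that supply the nucleotide sugars were measured in full, and 1 of 11 was lower, beside 11.7% of all tested genes. GNPNAT1, which acetylates glucosamine 6-phosphate on the way to UDP-N-acetylglucosamine, had 3797 and 3213 counts and a log2 ratio of -0.71 [-0.78 to -0.65]. The 4 most abundant others were GPI, glucose 6-phosphate isomerase, at 0.34, GFPT1, the entry enzyme of the hexosamine route, at 0.01, UGP2, which makes UDP-glucose, at 0.09, and the hexokinase gene HK1 at -0.13. UGDH, which oxidises UDP-glucose to UDP-glucuronic acid and was singled out for that role, was at -0.14 [-0.28 to -0.01]. The median of the 11 was -0.13.

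Among other breakdown genes 0 of 4 tested passed the rule, beside 12.2% higher and 11.7% lower among all tested genes. HEXA, which encodes a subunit of lysosomal hexosaminidase, was at 0.41 and the glucuronidase gene GUSB at 0.27. CEMIP2, a cell surface relative of CEMIP, had 486 and 450 counts and was at -0.58 [-0.77 to -0.40], just under 1.5-fold. With DESeq2 size factors it was past the rule, at -0.60. After the adjustment HEXA was at 0.70 and past the rule, and CEMIP2 at -0.40.

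Of other receptors 2 of 7 were tested and neither passed, beside 12.2% higher and 11.7% lower among all tested genes. HMMR, the hyaluronan-mediated motility receptor, which also serves the mitotic spindle, had 5019 and 6337 counts and a log2 ratio of -0.14 [-0.19 to -0.08]. TLR2 was at -0.04 on 25 and 34 counts, and LYVE1, STAB1 and LAYN had 0 counts in both libraries.

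Of 18 other binders and modifiers 9 had 0 counts in both libraries and 3 were tested. Of the 3, 1 was lower and 0 were higher, beside 11.7% lower and 12.2% higher among all tested genes. VCAN, versican, a large proteoglycan that binds hyaluronan through its end domain, had 233 and 117 counts, or 14.8 and 5.34 CPM. The knockdown value is the low one, with a log2 ratio of -1.46 [-1.80 to -1.14] and -1.14 after the adjustment. The link protein gene HAPLN3 was at 0.43 [0.01 to 0.86]. C1QBP, a mitochondrial protein also described as a hyaluronan binder, was at 0.33 [0.28 to 0.38] and overlaps DHX33 on its strand.

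CD44 partners were lower in 4 of 14 cases and higher in 0, with a median of -0.31, beside 11.7% lower and 12.2% higher among all tested genes. After the adjustment 2 of 14 were lower, beside 1239 lower among the 13258 tested genes matched for GC content. The median of the 14 was then -0.40, further below 0. ADAM17, a sheddase, had 1842 and 1078 counts and a log2 ratio of -1.25 [-1.36 to -1.14]. ADAM10, which sheds the CD44 ectodomain, had 3314 and 2451 counts and was at -0.91 [-0.98 to -0.83]. RDX, radixin, which joins CD44 to actin, was at -0.92 [-0.99 to -0.84], and IQGAP1, a cytoskeletal scaffold, at -0.81 [-0.87 to -0.76]. The other ERM linker genes EZR and MSN were at -0.41 and -0.51, the splicing regulator gene ESRP1 at -0.02 and the membrane protease gene MMP14 at -0.27. After the adjustment ADAM10 and IQGAP1 lay under 1.5-fold, at -0.48 and -0.53, while ADAM17 and RDX were at -0.83 and -0.64. EZR and MMP14 moved further down, to -0.52 and -0.48, and MSN and ESRP1 moved up, to -0.34 and 0.09.

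The 3 relatives and partners of HABP4 did not pass the rule and all lay below 0. By that rule 12.2% of all tested genes were higher and 11.7% lower. SERBP1, the close paralog of HABP4 and a ribosome-bound RNA-binding protein, had 15183 and 14864 counts and was at -0.50 [-0.54 to -0.47]. CHD3, a chromatin remodeller, was at -0.47 and the splicing factor gene SRSF1 at -0.19. The interval of HABP4, 1.25 to 2.18, lies wholly above that of its paralog.

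The deposited table itself attaches a term naming hyaluronan to 56 genes, 7 of them among the 8 described here. HABP4 is the exception and carries none. Of the other 49 genes 12 were tested, of which 1 was higher, 2 were lower and 9 were neither, around a median of -0.02. Beside this, 12.2% of all tested genes were higher and 11.7% lower, around a median of 0.03. VCAN, HMMR, CEMIP2, HAPLN3 and C1QBP are among the 12 and were also counted in the related lists above. The higher gene was MESD at 1.63, and the lower genes were VCAN and OGA, an O-GlcNAc hydrolase, at -0.59 [-0.66 to -0.53]. With total counts, with deposited FPKM and after the adjustment, where OGA was at -0.42, OGA was not called and the lower count was 1. TUSC2 and AP2A1 were at 0.40 and 0.47.

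**Figure D5:**
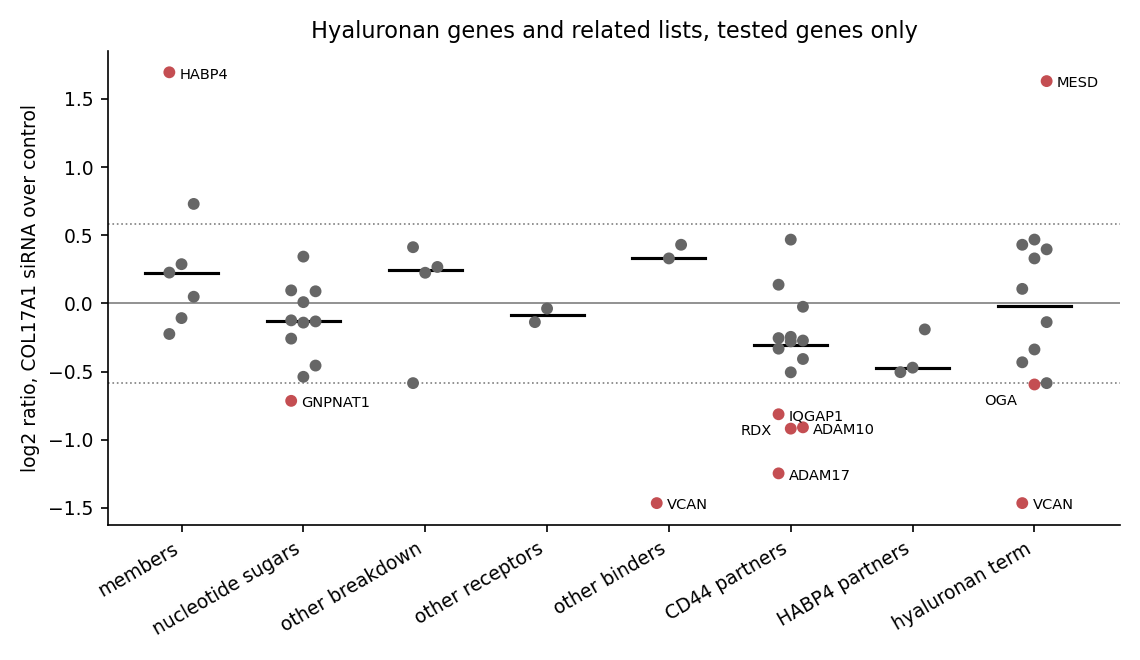
Log2 ratios of the tested genes among the 8 described genes, in the related lists and among genes with a hyaluronan term in the deposited table. A gene of a related list that also has such a term, as VCAN, is drawn in both places. Red points passed the 1.5-fold rule, bars are medians and dotted lines mark 1.5-fold; HABP4 and MESD are the only red points above 0, and VCAN, at -1.46, is the lowest.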

How the data were processed

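Per the labels, polyadenylated RNA was sequenced with a stranded kit or equivalent. The deposited table gives raw counts per gene and library, not normalized by the authors, and deposited FPKM values; dividing each count by its exonic size and its library total gave these back to within 0.0051 in 100% of genes. Per the submitters' processing notes, the tools were STAR, HISAT2 and edgeR and the build hg38 or GRCh38, without roles. For the counting tool, strand setting and annotation release the sources used here give nothing. All columns of sample values were mapped to a library.

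Counts were scaled with TMM factors of 0.987 (control) and 1.01 (knockdown) (edgeR 4.0.16, R 4.3.3), and log2 ratios were taken after adding 0.5 to each count. Intervals of ratios are exact Clopper-Pearson and those of levels exact Poisson, at 95%. No molecular identifiers mark the reads, so they may not all be independent, and intervals and the limit of 3 counts cover counting error only. Tested genes had a mean of at least 1 CPM. The adjustment subtracted a quadratic least-squares trend on exonic size, GC content of the longest GENCODE release 29 transcript (99.1% of tested genes matched) and abundance, with log2 ratios capped at 3 in the fit. The log2 ratio, its interval and the call rule were run on simulated Poisson counts scaled by library totals. The TMM factors, the adjustment and the word search were not part of that run, nor were reads that are not independent. Tables were handled in pandas 2.3.3 and numpy 2.4.6, intervals came from scipy 1.17.1 and figures from matplotlib 3.10.9, all under Python 3.11.15.

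The 8 genes and the lists were chosen with earlier results of these data known. The text names all 8, each listed gene that passed the 1.5-fold rule, up to 4 others per list by abundance, and neighbouring or overlapping loci. One gene of the breakdown list is counted but not reported here. Annotated process terms of 2223 genes, 4 of the 8 among them, were not used here, so membership by term is partial. The alternatives tried were total counts, size factors from DESeq2 1.42.0, FPKM with 0.1 added, an offset of 2, the adjustment, a filter at 5 CPM or none, and a 2-fold rule. UGDH and the window of 60 kb around the HYAL genes were chosen after their values were seen.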

Additional observations from a re-analysis of the deposited data

How the results depend on the processing

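HABP4 was called higher under every alternative run, with log2 ratios from 1.62 to 1.74. The count of the 8 genes called higher was 2 with total counts and 2 with deposited FPKM, where HYAL3 joined HABP4. HAS3, HYAL1, HYAL2 and CD44 had values on either side of 0 across the alternatives, from -0.04 to 0.10, -0.01 to 0.33, -0.10 to 0.26 and -0.13 to 0.12. HYAL3 ranged from 0.28 to 0.77 and CEMIP from -0.24 to -0.10. Among all tested genes 1003 were higher and 1239 lower after the adjustment for length, GC content and abundance. Under the 2-fold rule 407 were higher and 481 lower. Of the related lists 1 gene, HEXA, was higher and 4 were lower after the adjustment, with a median of -0.11. With DESeq2 size factors, where CEMIP2 joined, 7 were lower, and under the 2-fold rule 2 were. The cause of these moves was not tested, save that a stricter size rule passes fewer genes. No paired analysis was possible because each group has 1 library. Under 100 counts per library, as for HAS3, HYAL3 and CEMIP, 1.5-fold differences were at the limit of detection.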

Other observations

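In the deposited annotation all 4 molecular function terms of CEMIP, hyaluronan binding among them, also stand on MESD, and all 9 of HYAL2 stand on TUSC2. Each pair overlaps on the chromosome. MESD had a log2 ratio of 1.63 and was the only higher gene among the 12 tested genes, beyond the 8 described, that carry a hyaluronan term, whereas CEMIP was at -0.22. HABP4, the gene with the largest ratio of the 8, carries no hyaluronan term there.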
